A study of Cricetulus griseus with 24 samples.

Results

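Ppat, Pfas, Gart, Paics, Adsl and Atic encode the enzymes that build the purine ring, Impdh1, Impdh2 and Gmps those that turn its product into GMP, and Hprt1 an enzyme that recycles free purine bases. These 10 genes were chosen by symbol, and all 10 were found among the 28037 genes of the count table. All 10 passed the filter on low counts in every comparison. RNA was sequenced from A0, an antibody-producing clone derived from Chinese hamster ovary (CHO) DG44 cells, from A1, the progeny of A0 after methotrexate amplification, and from CHO-S, a CHO line that makes no antibody. The CHO-S samples are titled NDST, a label that the sources used here do not explain, so whether they differ from unmodified CHO-S is not known here. Both A0 and A1 carry a plasmid with an IgG heavy chain gene and another with a light chain gene and a neomycin resistance gene. A1 was obtained by stepwise selection in rising methotrexate, whereas A0 was not. All lines were grown as batch cultures and sampled in exponential or stationary phase, with 4 A0 cultures, 3 A1 cultures and 3 CHO-S cultures at each phase. Each line is represented by 1 cell line, so the cultures measure the spread between cultures and not between independent amplifications, and A0 and A1 differ from CHO-S in host as well as in the transgenes.

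Purine nucleotides are made in mammalian cells by assembling the ring on phosphoribosyl pyrophosphate (PRPP), with amidophosphoribosyltransferase, the product of Ppat, at the committed step and inosine monophosphate (IMP) as the end product. Several steps use glutamine, and Gart and Atic take a formyl group from tetrahydrofolate, the cofactor that methotrexate, an antifolate, depletes. IMP is then turned into AMP or, through IMP dehydrogenase and GMP synthetase, into GMP, while hypoxanthine-guanine phosphoribosyltransferase returns hypoxanthine and guanine to the nucleotide pool. Proliferating cells draw on these routes for DNA and RNA synthesis.

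The cultures gave 24 libraries, since each A0 exponential culture had 2 libraries that were summed. The library of CHO-S stationary culture 1 stood apart, with 1038026 reads counted on genes, 8.53% of the median library, against 6532373 to 14652646 in the other libraries. In that library 49.8% of the reads fell in the summary lines outside counted genes, against 31.8% to 40.8% in the others. Comparisons that use the CHO-S stationary cultures are therefore given with and without it. Levels are read counts relative to library size (CPM) scaled by the trimmed mean of M-values (TMM) over all 20 cultures, and differences are log2 fold changes from edgeR (quasi-likelihood fit), with p-values adjusted by Benjamini-Hochberg over all genes tested and a threshold of 0.05. The cells carried the mesenchymal marker Vim at 728 to 1465 CPM, while the leukocyte marker Ptprc reached 0.171 CPM, the liver marker Alb 0.733 CPM and the epithelial keratin Krt8 0.164 CPM at most. The epithelial marker Epcam was at 1.57 to 3.54 CPM in A0 and A1 and at or under 0.220 CPM in CHO-S, and the endothelial marker Pecam1 was at 0.451 to 7.18 CPM, highest in CHO-S stationary culture 3. Their part in the results was not tested.

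**Figure D1:**
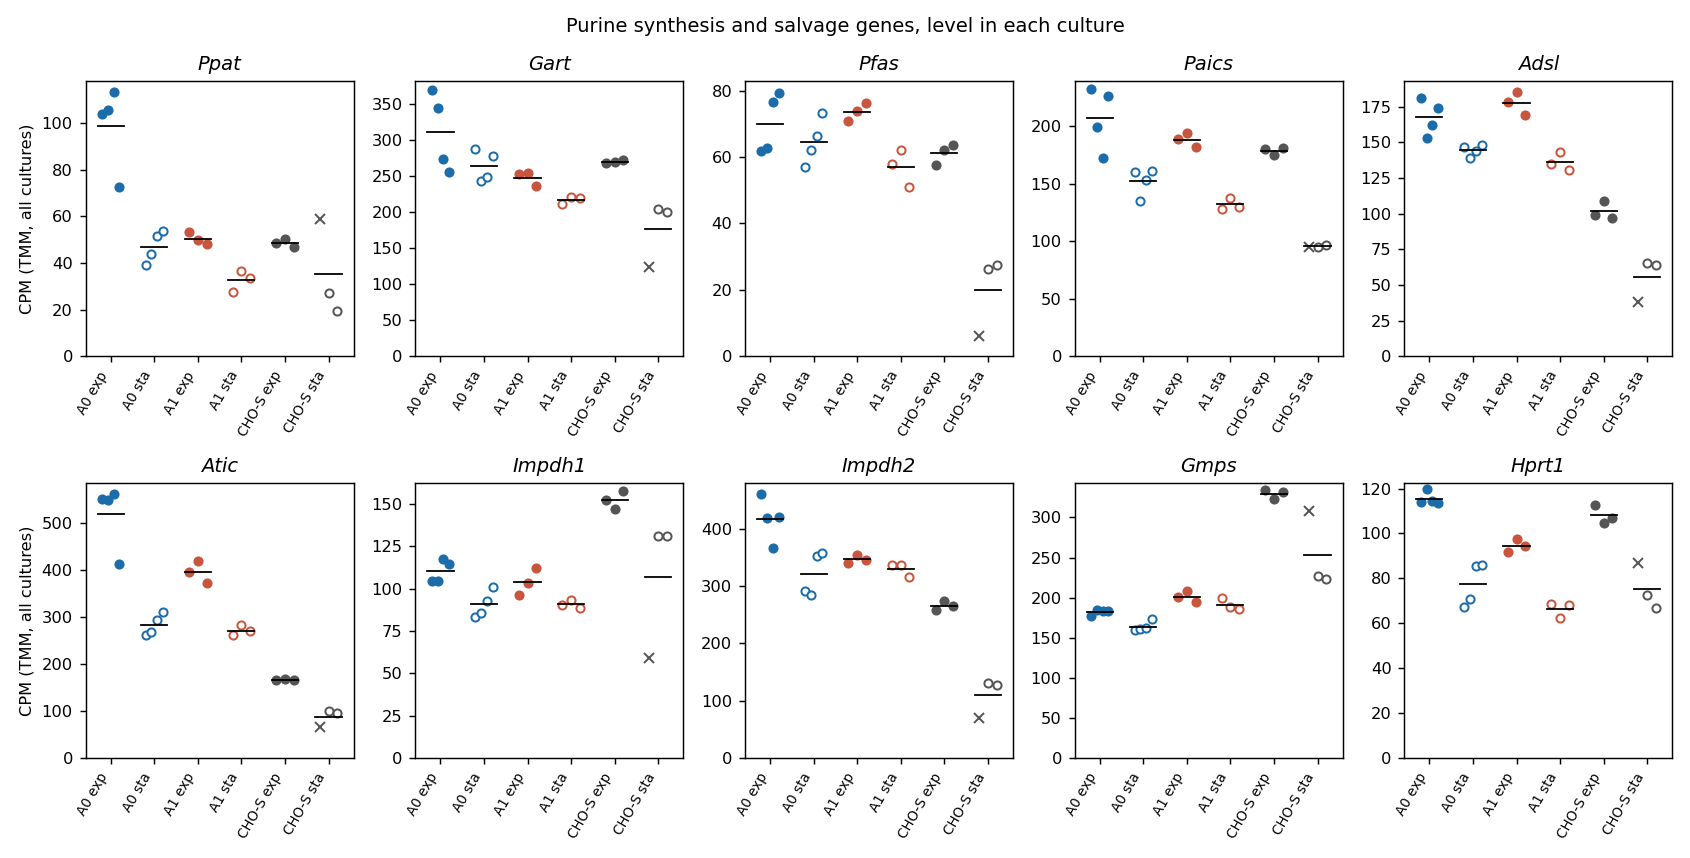
Level of each of the 10 genes in CPM (vertical axes, from 0) in the 20 cultures of A0, A1 and CHO-S at exponential (exp, filled) and stationary (sta, open) phase. Each point is 1 culture, each line a group mean, and the cross marks CHO-S stationary culture 1. Ppat stood at 72.6 to 113 CPM in A0 exponential cultures and at or under 58.8 CPM in all other cultures.

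Ppat, the gene of the committed step, had the largest difference between A1 and A0 among the 10 genes at both phases. At exponential phase the A0 cultures had 104, 106, 113 and 72.6 CPM, and the A1 cultures had 53.5, 49.8 and 48.0 CPM. All 3 A1 cultures lay under the lowest A0 culture. Ppat was lower in A1 by 1.96-fold (log2 fold change -0.97 ± 0.13 SE, 95% confidence interval -1.25 to -0.69, adjusted p = 8.58e-05 from edgeR), and the difference passed the threshold under all 16 alternatives run. At stationary phase the A0 cultures had 39.0, 43.9, 51.4 and 53.7 CPM and the A1 cultures had 27.6, 36.5 and 33.6 CPM. The groups again did not overlap, and Ppat was lower in A1 by 1.45-fold (log2 fold change -0.53 ± 0.12, adjusted p = 0.00396 from edgeR), past the threshold under all 15 alternatives. In these bulk samples, less Ppat RNA per cell and fewer cells that express it cannot be told apart.

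The level of Ppat in A0 exponential cultures also stood above that of the third line. CHO-S had 48.7, 50.3 and 47.0 CPM at exponential phase, close to the 3 A1 cultures. Against CHO-S, Ppat was 2.05-fold higher in A0 (log2 fold change 1.03 ± 0.13, adjusted p = 1.25e-05 from edgeR), while A1 had a log2 fold change of 0.05 with a 95% confidence interval of -0.08 to 0.18 (adjusted p = 0.562). By group mean, Ppat descended from 98.9 CPM in A0 exponential through 50.5 in A1 exponential, 48.7 in CHO-S exponential, 47.0 in A0 stationary and 35.2 in CHO-S stationary to 32.6 in A1 stationary cultures. Without CHO-S stationary culture 1, which had 58.8 CPM, the CHO-S stationary mean was 23.3 CPM and the lowest of the groups. The ranges of A1 exponential, CHO-S exponential and A0 stationary cultures overlapped, while CHO-S stationary cultures overlapped those of A0 and A1 through culture 1 alone, the others being at 19.5 and 27.2 CPM, under the lowest A1 culture at 27.6 CPM.

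Paics, which encodes a bifunctional enzyme of the middle of the pathway, lies next to Ppat in the hamster RefSeq annotation (assembly CriGri-PICRH-1.0, a build other than that of the counts). No other protein-coding gene is annotated between the pair. At exponential phase Paics was at 232, 199, 172 and 226 CPM in A0 and at 189, 194 and 182 CPM in A1. These groups overlapped, and its log2 fold change was -0.14 ± 0.11 with a 95% confidence interval of -0.37 to 0.08 (adjusted p = 0.374 from edgeR). The log2 ratio of Ppat to Paics counts within a culture, which does not depend on the scaling of libraries and was chosen after the values were seen, averaged -1.08 over the A0 cultures (SD 0.44, n = 4) and -1.90 over the A1 cultures (SD 0.075, n = 3). It was lower in all 3 A1 cultures than in all 4 A0 cultures, by 0.82 (difference -0.82, two-sided exact permutation test, p = 0.0571 over 35 splits). In CHO-S exponential cultures it averaged -1.88 (SD 0.071, n = 3), which overlapped A1. At stationary phase the ratio averaged -1.71 over the A0 cultures (SD 0.22, n = 4) and -2.03 over the A1 cultures (SD 0.16, n = 3), and the groups overlapped (two-sided exact permutation test, p = 0.114).

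**Figure D2:**
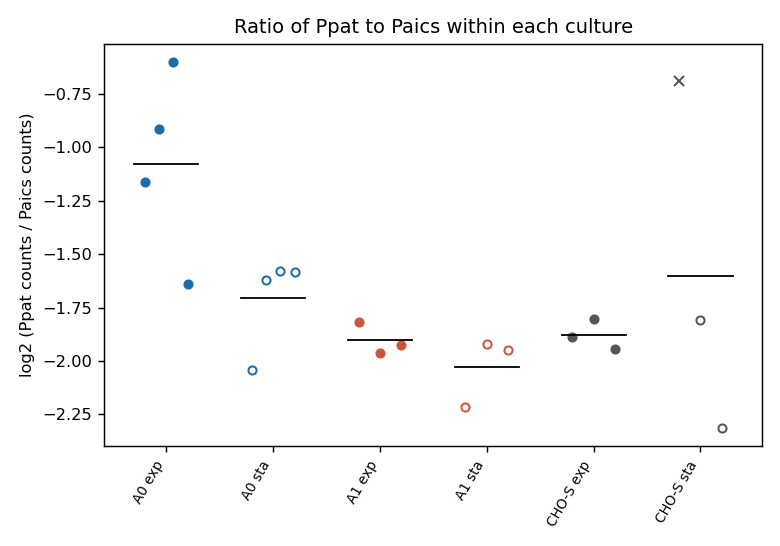
Log2 ratio of Ppat to Paics counts (vertical axis) in each culture, by line and growth phase, with group means as lines, exponential cultures filled, stationary cultures open and CHO-S stationary culture 1 as a cross. The A0 exponential cultures lay between -1.64 and -0.60, above all A1 and CHO-S exponential cultures, which lay between -1.96 and -1.80.

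Of the genes that carry the ring from phosphoribosylamine to IMP, Atic was lower in A1 at exponential phase. Atic encodes the enzyme of the final steps, a formyl transferase and cyclohydrolase. It had 551, 550, 561 and 413 CPM in A0 against 396, 418 and 374 CPM in A1, where A0 culture 4 lay below the highest A1 culture. The log2 fold change was -0.39 ± 0.11 (1.31-fold lower, adjusted p = 0.0156 from edgeR), and it missed the threshold without A1 culture 1 (adjusted p = 0.0671) or A1 culture 3 (adjusted p = 0.102) and with A0 cultures 3 and 4 alone (adjusted p = 0.0906). At stationary phase Atic overlapped between the lines, at 262 to 311 CPM in A0 and 261 to 282 CPM in A1 (log2 fold change -0.08, 95% confidence interval -0.24 to 0.08, adjusted p = 0.466).

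Gart encodes a trifunctional enzyme of the early pathway, which includes the other formyl transfer. Its exponential values were 369, 344, 274 and 256 CPM in A0 and 252, 254 and 235 CPM in A1. The groups did not overlap, but A0 cultures 3 and 4 stood close to A1, and the log2 fold change of -0.33 ± 0.12 missed the threshold (adjusted p = 0.0555 from edgeR, passed in 6 of 16 alternatives). At stationary phase the values were 288, 242, 248 and 277 CPM in A0 and 211, 220 and 220 CPM in A1. Gart was then lower in A1 by 1.22-fold (log2 fold change -0.29 ± 0.07, adjusted p = 0.00662 from edgeR, passed in 14 of 15 alternatives).

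Paics was the third gene lower in A1 at stationary phase, with 160, 135, 154 and 161 CPM in A0 and 128, 138 and 130 CPM in A1. Its log2 fold change was -0.22 ± 0.08 (adjusted p = 0.0378 from edgeR), with overlapping groups. The call held in 6 of 15 alternatives and in 1 of the 7 fits that each left out 1 culture, that without A0 culture 2. Pfas, a glutamine-using amidotransferase of the pathway, and Adsl, a lyase that acts both on the way to IMP and on the way to AMP, did not pass at either phase. At exponential phase Pfas was at 61.7 to 79.2 CPM in A0 and 70.7 to 76.4 CPM in A1 (log2 fold change 0.07, 95% confidence interval -0.15 to 0.29). Adsl was at 153 to 181 CPM in A0 and 169 to 186 CPM in A1 (log2 fold change 0.08, 95% confidence interval -0.11 to 0.27). At stationary phase their log2 fold changes were -0.20 (95% confidence interval -0.41 to 0.02) for Pfas and -0.09 (95% confidence interval -0.24 to 0.05) for Adsl.

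In the branch to GMP, the lines differed in different directions by gene. Gmps, GMP synthetase, had 178, 185, 183 and 183 CPM in A0 and 201, 208 and 195 CPM in A1 at exponential phase, and 159, 161, 162 and 173 CPM in A0 and 200, 188 and 186 CPM in A1 at stationary phase. All A1 cultures lay above all A0 cultures at both phases. Gmps passed the threshold at stationary phase, 1.16-fold higher in A1 (log2 fold change 0.21 ± 0.07, adjusted p = 0.0245 from edgeR), but not at exponential phase (log2 fold change 0.14 ± 0.08, adjusted p = 0.219). Leaving out any 1 A1 culture ended the stationary call (adjusted p = 0.0918 for culture 1, 0.0564 for culture 2 and 0.0574 for culture 3). Impdh2, the IMP dehydrogenase of proliferating cells, had 461, 418, 367 and 420 CPM in A0 and 341, 355 and 345 CPM in A1 at exponential phase. It was lower in A1 with no overlap (log2 fold change -0.27 ± 0.09, adjusted p = 0.0488 from edgeR), a call that stood close to the threshold and held in 7 of 16 alternatives. The 9 that lost it include 5 of the 7 fits without 1 culture, those without A0 culture 1 or 2 or any 1 A1 culture. Impdh1, the other IMP dehydrogenase, was at 104 to 117 CPM in A0 and 96.5 to 112 CPM in A1, with a log2 fold change of -0.08 (95% confidence interval -0.28 to 0.11). At stationary phase neither dehydrogenase gene passed, with log2 fold changes of 0.03 (95% confidence interval -0.16 to 0.21) for Impdh2 and -0.01 (95% confidence interval -0.19 to 0.16) for Impdh1.

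Hprt1, the salvage gene, was lower in A1 at exponential phase. The A0 cultures had 114, 120, 114 and 113 CPM and the A1 cultures had 91.6, 97.5 and 94.3 CPM. The groups did not overlap, and the log2 fold change was -0.29 ± 0.08 (1.22-fold lower, adjusted p = 0.0173 from edgeR), which missed the threshold without A1 culture 1 (adjusted p = 0.0947) or A1 culture 3 (adjusted p = 0.0719). At stationary phase Hprt1 was at 67.1, 71.0, 85.4 and 85.7 CPM in A0 and at 68.5, 62.2 and 67.9 CPM in A1. The stationary log2 fold change was -0.24 ± 0.10 (adjusted p = 0.0801 from edgeR), and A0 cultures 1 and 2 lay close to A1 while cultures 3 and 4 lay above it.

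Counted over the 10 genes at exponential phase, 4 were lower in A1 (Ppat, Atic, Impdh2 and Hprt1) and none was higher, nor was one with DESeq2 or at an unadjusted p under 0.05 in edgeR, against 25.7% of all 20021 genes past the threshold in either direction, of which 2756 were lower and 2398 higher. The share of all genes includes genes with very few counts. With a stricter filter on low counts (filterByExpr of edgeR), 5164 of 14085 genes passed and the 10 genes kept their calls. The share of the 10 stood near that share. The cultures of A1 and A0 did not overlap for 5 of the 10 genes, against 34.3% of all genes. The median log2 fold change was -0.20 over the 10 genes and -0.04 over all genes tested. At stationary phase 3 were lower (Ppat, Gart and Paics) and 1 was higher (Gmps), against 33.7% of all 19293 genes, of which 3412 were lower and 3084 higher, and the median was -0.15 over the 10 genes and -0.0021 over all. There the cultures did not overlap for 3 of the 10, against 39.9% of all genes. The stationary share stood near that of all genes. With the stricter filter, 6302 of 13358 genes passed at stationary phase and the 10 genes kept their calls. The count ranged from 1 to 5 at exponential phase and from 2 to 4 at stationary phase when each culture was left out in turn, the lowest without A1 culture 1 or 3 at exponential phase and without any 1 A1 culture at stationary phase. Calls over all genes fell as well, from 5154 to 3422 of 19822 and 3156 of 19853 without A1 exponential culture 1 or 3. At stationary phase they fell from 6496 to between 4863 and 5353 without 1 A1 culture. With A0 cultures 3 and 4 alone, Pfas (-0.30), Atic (-0.16) and Hprt1 (-0.38) also passed as lower in A1 at stationary phase. With A0 cultures 1 and 2 alone, Impdh2 (0.18) passed there as higher and Paics no longer passed.

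**Figure D3:**
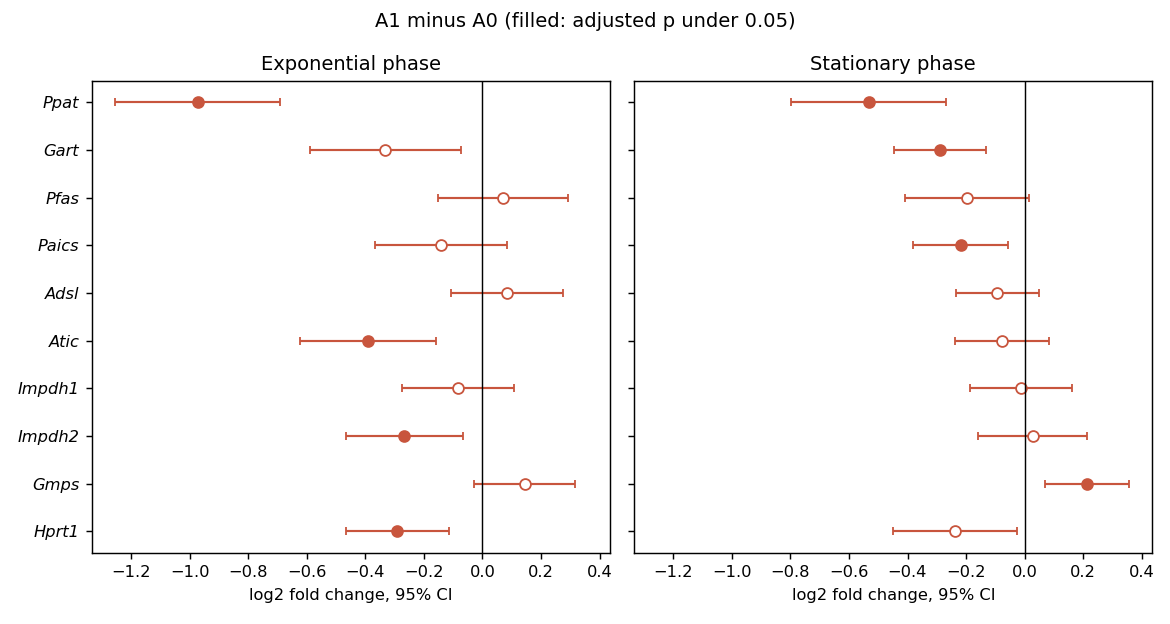
Log2 fold change of A1 over A0 (horizontal axis) with its 95% confidence interval for each of the 10 genes at exponential (left) and stationary (right) phase, from edgeR. Filled points passed an adjusted p of 0.05. Ppat lay farthest from 0 at both phases, at -0.97 and -0.53, and Gmps lay on the positive side at both, at 0.14 and 0.21.

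The A0 libraries themselves differed in several of these genes. For A0 exponential cultures 1 and 2 the second library is labelled RLT, and for cultures 3 and 4 it is a duplicate. The RLT library of culture 1 had 410 CPM of Gart against 316 in the first library of that culture, 257 against 200 CPM of Paics, 206 against 149 CPM of Adsl and 502 against 406 CPM of Impdh2. The RLT library of culture 2 also had the higher value of these genes, with 368 against 319 CPM of Gart and 441 against 394 CPM of Impdh2. Ppat was lower in both RLT libraries (100 and 99.9 CPM against 106 and 109), as was Impdh1 (93.8 and 101 CPM against 115 and 106). Hprt1 was lower in both as well, Gmps in that of culture 1 alone, and Pfas and Atic were higher in both. The libraries of culture 1 differed over genes by a chi-square of 26.8 per degree of freedom, against 5.98 for culture 2, 3.12 for culture 3 and 2.74 for culture 4. With the first library of each culture alone, Impdh2 no longer passed (log2 fold change -0.17, adjusted p = 0.142 from edgeR), and Ppat, Atic and Hprt1 did. The part of the RLT libraries in the other values was not tested.

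Most of the genes fell from exponential to stationary phase. In A0 all 10 had a negative log2 fold change and 6 passed the threshold as lower, against 37.6% of all 20326 genes past it, of which 4066 were lower. With the stricter filter, 7293 of 13682 genes passed, 3600 of them higher. Ppat changed most, from the values above to a level 2.12-fold lower (log2 fold change -1.08 ± 0.14, adjusted p = 1.2e-05 from edgeR), followed by Atic at 1.84-fold lower (-0.88 ± 0.11, adjusted p = 1.07e-05) and Hprt1 (-0.59 ± 0.10, adjusted p = 0.000191). Stationary and exponential A0 cultures did not overlap for these 3 genes nor for 5 of the others, 8 of 10 in all, against 35.7% of all genes. Paics fell by 0.46 on the log2 scale (adjusted p = 0.00304), Impdh2 by 0.39 (adjusted p = 0.00861) and Impdh1 by 0.29 (adjusted p = 0.0229 from edgeR). The Impdh1 call was lost without A0 exponential culture 3 or stationary culture 1 or 2. The culture number was then used as a block, taken to pair the A0 cultures by a rule given below. In that fit Gart (log2 fold change -0.23, adjusted p = 0.029 from edgeR) and Adsl (-0.22, adjusted p = 0.0417) passed as well, which made 8 of 10. The pairing is uncertain for numbers 3 and 4, whose stationary cultures correlated better with an exponential culture of another number. A0 cultures 1 and 2 also differed from cultures 3 and 4 in the share of reads not aligned. It was 4.22% to 4.85% against 3.13% to 3.39% at exponential phase and 8.91% to 9.41% against 6.43% to 6.97% at stationary phase. A block by number cannot tell paired cultures from a difference between these sets, whose source was not tested.

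A1 went through a like fall for most of these genes, with 8 of 10 lower at stationary phase, against 33.4% of all 18548 genes past the threshold and 17.8% lower. The largest was again that of Ppat, 1.51-fold lower (log2 fold change -0.59 ± 0.09, adjusted p = 2.03e-06 from edgeR). Atic (-0.53 ± 0.06), Hprt1 (-0.50 ± 0.07), Paics (-0.49 ± 0.06), Adsl (-0.36 ± 0.06) and Pfas (-0.35 ± 0.07) followed, each with no overlap between the phases. The phases did not overlap for 9 of the 10 genes in A1, Gmps being the exception, against 43.1% of all genes. With the stricter filter, 6124 of 12988 genes passed over the phases of A1, 3061 of them higher. Impdh1 (-0.18 ± 0.06, adjusted p = 0.03) and Gart (-0.17 ± 0.06, adjusted p = 0.0196) passed by a small margin, and each call was lost when certain cultures were left out, exponential culture 2 or 3 or stationary culture 1 or 3 for Impdh1 and exponential culture 1 or 2 or stationary culture 1 for Gart. Impdh2 was at 341 to 355 CPM in exponential and 315 to 337 CPM in stationary A1 cultures, a log2 fold change of -0.06 with a 95% confidence interval of -0.16 to 0.05. Gmps was at 195 to 208 and 186 to 200 CPM, with -0.06 and an interval of -0.17 to 0.06.

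In CHO-S all 10 genes had a negative log2 fold change as well, and the number that passed depended on stationary culture 1. With it, 5 of 10 passed as lower, against 13.3% of all 17367 genes past the threshold and 6.48% lower. Without it, all 10 passed as lower, against 47.7% of all 17319 genes and 24.7% lower, and the group then holds 2 stationary cultures. With the stricter filter and culture 1 kept, 2603 of 12667 genes passed, 1432 of them higher. Pfas had 57.6, 62.1 and 63.6 CPM at exponential phase and 26.2 and 27.4 CPM in stationary cultures 2 and 3, with 6.19 CPM in culture 1. Its fall was 2.28-fold without culture 1 (log2 fold change -1.19, adjusted p = 2.74e-25 from edgeR) and 2.66-fold with it (adjusted p = 0.0277). Impdh2 went from 258, 274 and 265 CPM to 131 and 128 CPM, and to 70.2 CPM in culture 1, a fall of 2.04-fold without that culture and 2.37-fold with it. Ppat was the exception to the order of the cultures, with 58.8 CPM in culture 1 above all 3 exponential cultures and 27.2 and 19.5 CPM in the others. Its log2 fold change was -0.66 ± 0.35 with culture 1 (adjusted p = 0.255) and -1.003 without it (adjusted p = 1.92e-18). Leaving out any 1 other culture while keeping culture 1 left 0 or 1 of the 10 genes past the threshold. Calls over all genes fell as well in those fits, from 2308 of 17367 to between 0 of 16938 and 574 of 17061.

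**Figure D4:**
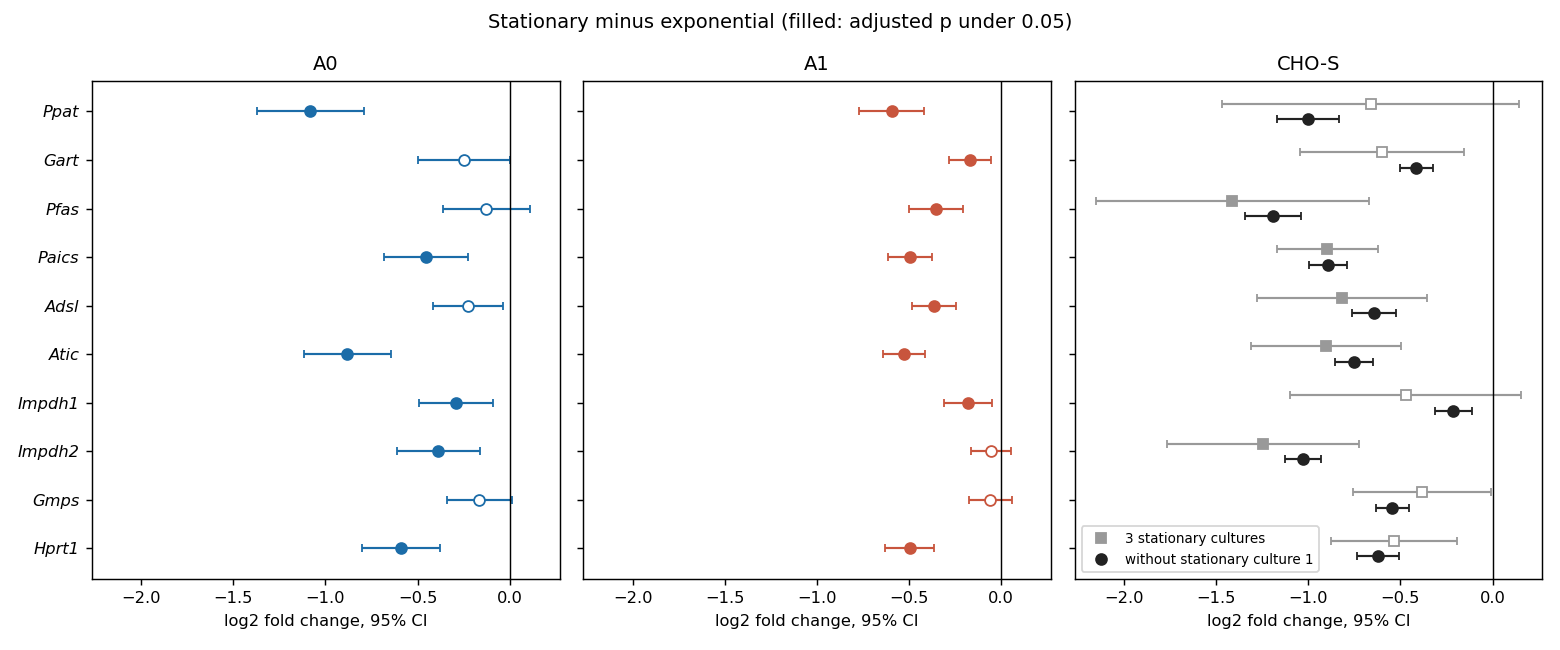
Log2 fold change of stationary over exponential cultures (horizontal axis) with its 95% confidence interval for each of the 10 genes in A0, A1 and CHO-S, from edgeR. For CHO-S, squares are the fit with all 3 stationary cultures and circles the fit without culture 1. Filled symbols passed an adjusted p of 0.05. All values lay below 0, and Impdh2 was at -0.39 in A0, -0.06 in A1 and -1.25 or -1.03 in CHO-S.

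Genes of cell proliferation went down with growth phase in the same cultures. Of 12 such genes, among them Mki67, Top2a, Pcna, the Mcm helicase genes and Rrm2, 11 were lower at stationary phase in A0, 11 in A1 and 8 in CHO-S, and 12 in CHO-S without culture 1. Over all genes, 4066 of 20326 were lower in A0, 17.8% in A1, 6.48% in CHO-S and 24.7% in CHO-S without culture 1. The median log2 fold change of the 12 was -1.47 in A0 and -0.71 in A1, next to -0.34 and -0.36 for the 10 purine genes. Between the lines, 6 of the 12 were lower in A1 at exponential phase, against 2756 of all 20021 genes, and 7 were higher at stationary phase, against 3084 of all 19293. The part of these differences in the purine gene values was not tested.

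Whether the difference between A1 and A0 changed with growth phase was tested as an interaction of line and phase. Without a block, none of the 10 genes passed with edgeR or with DESeq2, against 8.92% of all 20978 genes in edgeR, and 3 of the 10 had an unadjusted p under 0.05. These were Ppat, at 0.44 ± 0.19 (log2) (95% confidence interval 0.05 to 0.83, adjusted p = 0.164 from edgeR), Atic with 0.31 ± 0.14 (0.03 to 0.60, adjusted p = 0.173) and Impdh2 with 0.30 ± 0.13 (0.02 to 0.57, adjusted p = 0.185). Ppat and Atic were lowest in A0 exponential culture 4, Impdh2 in culture 3, and without A0 exponential culture 4 Ppat (0.56, adjusted p = 0.0168) and Atic (0.41, adjusted p = 0.0118) passed. With the culture number as a block, Ppat (0.43, adjusted p = 0.0179 from edgeR) and Atic (0.31, adjusted p = 0.0459) passed as well. The numbers were taken to pair the A0 cultures, with uncertainty for 3 and 4, and did not pair those of A1. The limit of the block given above holds here as well. Of the 12 proliferation genes, 7 had a positive interaction past the threshold.

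Against CHO-S at exponential phase, the antibody-producing lines had more RNA of Adsl, Atic and Impdh2 and less of Impdh1 and Gmps. Atic was at 165, 169 and 166 CPM in CHO-S, which put it 3.14-fold higher in A0 (log2 fold change 1.65 ± 0.11, adjusted p = 1.97e-08 from edgeR) and 2.37-fold higher in A1 (1.24 ± 0.05, adjusted p = 1.27e-16). Adsl was at 98.9, 109 and 97.2 CPM in CHO-S and was 1.66-fold higher in A0 and 1.74-fold higher in A1. Impdh2 was 1.58-fold higher in A0 and 1.30-fold higher in A1. In contrast, Gmps was at 335, 323 and 332 CPM in CHO-S and was 1.80-fold lower in A0 (log2 fold change -0.85 ± 0.08, adjusted p = 3.29e-07) and 1.64-fold lower in A1 (-0.72 ± 0.04, adjusted p = 8.37e-13). Impdh1 was at 152, 147 and 158 CPM in CHO-S and was 1.37-fold lower in A0 and 1.47-fold lower in A1. For these 5 genes neither A0 nor A1 overlapped CHO-S at this phase, and counted over the 10 genes the groups did not overlap for 7 in A0 and 9 in A1, against 53.5% and 61.9% of all genes.

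In all, 4 genes were higher and 2 lower in A0 than in CHO-S at exponential phase, against 49.2% of all 20052 genes past the threshold, 27.4% higher and 21.8% lower. For A1, 4 were higher and 4 lower, against 57.2% of all 18488 genes, 30.0% higher and 27.1% lower. With the stricter filter, 9222 of 14147 genes passed for A0 (4823 higher) and 9618 of 12962 for A1 (4858 higher). The further calls were Ppat in A0, given above, and Pfas (log2 fold change 0.26 ± 0.06, adjusted p = 0.000419), Hprt1 (-0.20 ± 0.05, adjusted p = 0.00142) and Gart (-0.13 ± 0.04, adjusted p = 0.0129 from edgeR) in A1. Both comparisons use the same 3 CHO-S cultures. Over all genes the median log2 fold change of A0 over CHO-S was 0.15. It was 0.04 with the stricter filter and 0.06 with the first library of each A0 culture. Gart (0.22), Paics (0.23), Pfas (0.21) and Hprt1 (0.10) did not pass, and how near they lay to the median depended on these choices.

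At stationary phase 6 genes were higher and 1 lower in A0 than in CHO-S, against 40.0% of all 19007 genes past the threshold, 20.7% higher and 19.3% lower. In A1, 5 were higher and none lower (1 was lower at an unadjusted p under 0.05 in edgeR and none with DESeq2), against 34.8% of all 18243 genes, 18.2% higher and 16.6% lower. Without CHO-S culture 1 these became 7 higher and 2 lower in A0, against 51.8% of genes (28.0% higher and 23.8% lower), and 6 higher and 2 lower in A1, against 57.4% (29.9% higher and 27.5% lower). With culture 1 and the stricter filter, 6903 of 13428 genes passed for A0 (3582 higher) and 5730 of 12859 for A1 (2853 higher). Atic was again the gene with the largest difference without that culture, 1.54 on the log2 scale in A0 and 1.43 in A1, followed by Impdh2 at 1.32 in both lines, Pfas at 1.29 and 1.06 and Adsl at 1.17 and 1.05. Gmps and Impdh1 stayed below CHO-S, at -0.44 and -0.51 in A0 and -0.27 and -0.56 in A1, all past the threshold without culture 1. With culture 1, Impdh1 did not pass in either line (log2 fold change -0.29 in both, adjusted p = 0.35 and 0.43 from edgeR), and Gmps passed in A0 only (-0.64, adjusted p = 0.00781, against -0.42 in A1, adjusted p = 0.0926). For Ppat the difference was 1.01 in A0 and 0.43 in A1 without culture 1, and 0.58 (adjusted p = 0.164) and 0.07 (adjusted p = 0.893) with it.

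**Figure D5:**
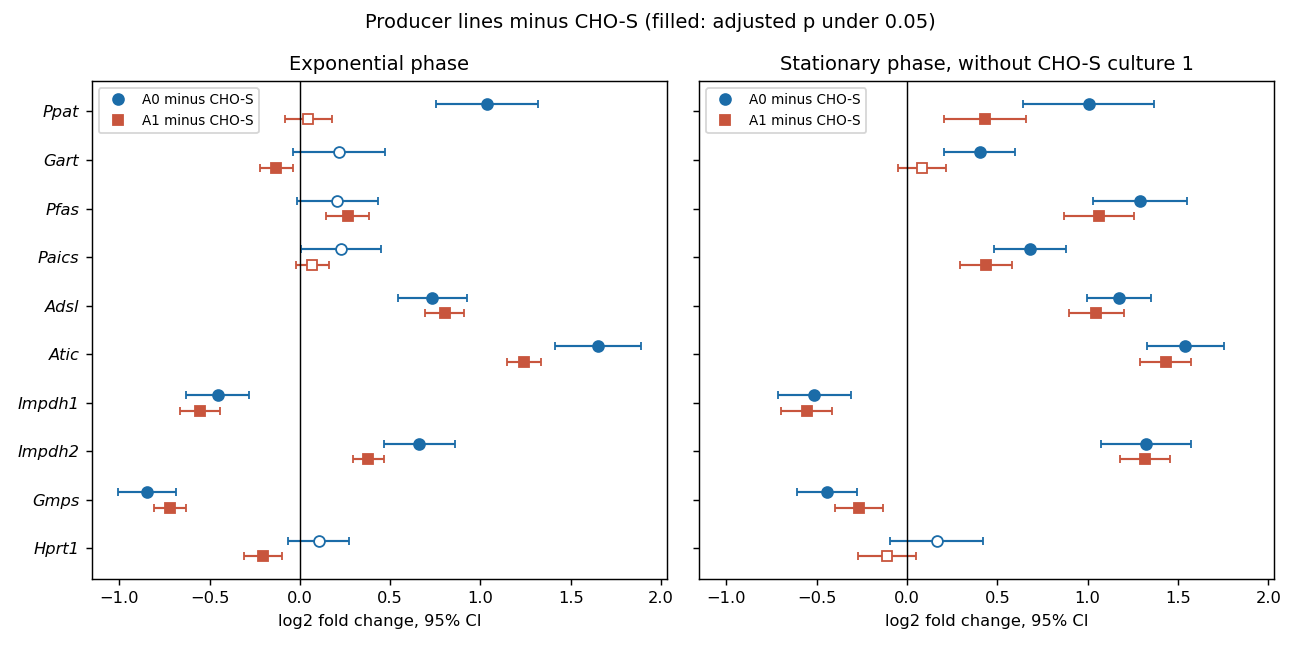
Log2 fold change of A0 (circles) and A1 (squares) over CHO-S (horizontal axis) with its 95% confidence interval for each of the 10 genes, at exponential phase (left) and at stationary phase without CHO-S culture 1 (right), from edgeR. Filled symbols passed an adjusted p of 0.05. Atic lay farthest above 0 at both phases, and Impdh1 and Gmps lay below 0 in both lines.

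Genes that feed or drain the pathway were read from lists of related genes. PRPP, the substrate of Ppat and Hprt1, is made by PRPP synthetases, and of 4 genes of that group Prps2 was lower in A1 at exponential phase (log2 fold change -0.41 ± 0.09, adjusted p = 0.00316 from edgeR) and Prps1 at stationary phase (-0.33, adjusted p = 0.00141). Prps2 stood at 275 to 314 CPM in the 4 A0 and 208 to 233 CPM in the 3 A1 exponential cultures.

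Among 11 other genes of purine salvage and breakdown, 3 were higher and 3 lower in A1 at exponential phase, against 2398 higher and 2756 lower of all 20021 genes. Aprt, which salvages adenine as Hprt1 does hypoxanthine and guanine, was at 65.5, 63.2, 48.4 and 57.7 CPM in A0 and at 115, 114 and 117 CPM in A1 (log2 fold change 0.97, adjusted p = 9.97e-06 from edgeR). It moved opposite to Hprt1. Xdh, which oxidises hypoxanthine to urate, was higher in A1 by 0.88 on the log2 scale (adjusted p = 0.000119) and Ada, adenosine deaminase, by 0.55 (adjusted p = 0.000362), while Dck, deoxycytidine kinase, was lower (-0.48, adjusted p = 0.00364). At stationary phase 2 were higher, Ada (0.90, adjusted p = 1.5e-05) and Aprt (0.41, adjusted p = 0.00191), and 2 were lower, Nt5c2 (-0.36) and Adk (-0.34). Over all 19293 genes tested there, 3084 were higher and 3412 lower.

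Folate genes supply the formyl groups that Gart and Atic use. Of 10 such genes, 3 were higher and 1 lower in A1 at exponential phase, against 2398 higher and 2756 lower of all 20021 genes. At stationary phase 1 was higher and 5 lower, against 3084 higher and 3412 lower of all 19293 genes. The folate carriers Slc46a1 (0.73, adjusted p = 0.00076) and Slc19a1 (0.45, adjusted p = 0.0167) were higher in A1 at exponential phase, as was Mthfd1, a trifunctional folate enzyme of the cytosol (0.28, adjusted p = 0.028 from edgeR). Mthfd2, a mitochondrial enzyme of one-carbon metabolism, was lower at both phases, at 246 to 387 CPM in A0 and 223 to 249 CPM in A1 at exponential phase (-0.47, adjusted p = 0.02) and with a log2 fold change of -0.77 at stationary phase (adjusted p = 2.82e-06).

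In the further lists, 1 of 10 genes of adenylate and guanylate interconversion was higher in A1 at exponential phase, Ak4 (0.27). At stationary phase 2 were higher and 2 lower, among them Ampd3, AMP deaminase, at -1.21 (adjusted p = 1.49e-05 from edgeR), Guk1 at -0.28 and Ak4 at 0.70. Of 4 nucleoside and base transporters, Slc29a3 was lower (-0.76 and -1.10) and Slc29a2 higher (0.32 and 0.64) at both phases. Slc43a3, with a mean of 4.97 CPM, was lower at exponential phase (-0.81, adjusted p = 0.0193 from edgeR) and did not pass at stationary phase (0.20). Of 5 pyrimidine genes, Umps (-0.52), Dhodh (-0.43) and Tyms (-0.39) were lower and Cad (0.47) was higher at exponential phase, and Umps (-0.30) and Dhodh (-0.32) were lower at stationary phase. These shares can be set beside the 25.7% and 33.7% of all genes past the threshold, or the 5164 of 14085 and 6302 of 13358 with the stricter filter.

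The genes with the pattern most like Ppat over the 20 cultures were Serbp1, an mRNA-binding protein (Pearson r = 0.93), Eri1, an exoribonuclease of histone mRNA (0.92), Msl3 (0.92) and Msl2 (0.91), subunits of a histone acetyltransferase complex, and Gmnn, the replication licensing inhibitor geminin (0.91), among 10587 other genes with at least 5 CPM on average. Among the other 9 purine genes the values were highest for Hprt1 (0.81), Paics (0.70) and Atic (0.62), in the middle for Gart (0.51), Impdh2 (0.46), Adsl (0.42) and Pfas (0.26), and near 0 for Impdh1 (-0.04) and Gmps (-0.13). Hprt1 ranked 174 and Paics 527 of the 10587. The cultures share line and phase, so these values are a description without a test.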

How the data were processed

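RNA libraries (TruSeq Stranded mRNA) of A0, A1 and CHO-S cultures were sequenced on the NextSeq platform. The authors aligned the reads with STAR 2.5.4b to the Chinese hamster genome and deposited HTSeq-count 0.7.2 counts per gene without normalization. The strand setting is not given in the sources used here, and reads that align to several places were not counted, so overlapping genes and genes with near-identical copies are uncertain. The 5 summary lines were kept out of library sizes.

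The filter kept genes that vary and have 1 count or more in no fewer than 2 of the libraries compared, and edgeR 4.0.16 in R 4.3.3 tested them (TMM, quasi-likelihood test, two-sided, Benjamini-Hochberg adjustment, threshold 0.05) on the groups of each comparison. DESeq2 1.42.0 was an alternative. The filter keeps genes with very few counts. With filterByExpr instead, a higher share of all genes passed in every comparison. Shares of groups not overlapping were not computed with it. Figures were drawn with matplotlib in Python. Nothing in the labels separates cultures from technical repeats beyond their numbers, so p-values measure the spread between these samples, which may be technical. Samples were grouped by their labels. Culture numbers were taken to pair samples only where deviations from the group means correlated above 0.1 for every number, which held for A0 over phases (0.42, 0.31, 0.27 and 0.19). For numbers 3 and 4 the A0 stationary culture correlated better with an exponential culture of another number, so that pairing is uncertain. These correlations cannot be told apart from a difference between cultures 1 and 2 and cultures 3 and 4 at each phase. The procedure was tested on simulated counts. Alternatives covered the tool, scaling, filter, culture block, samples in the fit, A0 libraries and cultures, and leaving out each culture.

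The genes and lists were chosen with earlier results of these data known. Apart from Slc43a3, related genes are named where they passed the threshold and averaged 5 CPM or more, up to 4 per list and comparison by size. Of the listed symbols, Slc29a1, Slc28a3, Adss1 and Adss2 were not matched, and Ctps2 reached 0.038 CPM at most, in an A0 exponential culture, too low to be tested. A further 2 listed genes are not reported here. Gene levels were not compared with each other, since transcript lengths were not used.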

Additional observations from a re-analysis of the deposited data

Results flagged for a closer look

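In the groups of 4 cultures, 82 sets of values of the 10 purine genes and 31 related genes were searched for a culture far from the others, by the gap to its nearest neighbour over the whole range. Chance gives about 1 in 20 such sets, and 5 were found. In A0 at exponential phase, Atic was at 413 CPM in culture 4 against 550 to 561 CPM in the others (gap 0.924 of the range), and Hprt1 at 120 CPM in culture 2 against 113 to 114 CPM (0.855). Xdh was at 63.8 CPM in culture 4 against 45.5 to 47.4 CPM (0.892), and Slc46a1 had a gap of 0.853. In A0 at stationary phase Guk1 had a gap of 0.837.

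The interaction of line and growth phase did not pass for the 10 purine genes without a replicate block (adjusted p under 0.05 from edgeR). Over all 20978 genes tested, 8.92% passed. With the stricter filter, 2128 of 13747 passed. The related genes given here were picked because they passed, by size and up to a limit per list. Their number therefore cannot be set against that of the purine genes. Of the 12 proliferation genes, 7 passed, and not all of these are listed. On the log2 scale the interaction, stationary minus exponential, was -1.43 for Ampd3, -0.57 for Aprt, -0.59 for Adk, -0.68 for Xdh, -1.11 for Mthfd2l and -0.51 for Mthfs. It was positive for the proliferation genes Mki67 (1.02), Pcna (0.92), Mcm5 (0.93) and Rrm2 (1.07).

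Gart lay below CHO-S in all A1 cultures at exponential phase (log2 fold change -0.13) and above CHO-S in all A1 cultures at stationary phase (0.27, and 0.08 without CHO-S culture 1). Whether these differ was not tested.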

How the results depend on the processing

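In 74 fits that each left out 1 culture and 76 others, 4102 of 4548 values kept direction and call, 339 no longer passed, 50 passed newly and 30 reversed. The values cover the 10 genes, their counts past the threshold, and related genes that were named because they passed in the main fit. The share kept is therefore not that of the 10 genes alone. The number of the 10 genes past the threshold moved as follows. With all 6 groups in 1 fit it was 2 for A1 against A0 at exponential and 1 at stationary phase, 5 for A1 against CHO-S at exponential phase, 5 for phases of A1 and 9 for those of CHO-S. With A0 cultures 3 and 4 alone it was 2 and 7 for A1 against A0 and 3 for phases of A0, and with cultures 1 and 2 alone 3 for the interaction. With the replicate block, whose numbers were taken to pair samples only for the A0 phases, it was 2 for the interaction (Ppat 0.43, Atic 0.31), 4 for A0 against CHO-S at stationary phase and 1 for phases of CHO-S. Leaving out 1 culture gave 1 to 5 and 2 to 4 for A1 against A0, 0 to 2 for the interaction, 6 to 7 and 6 to 9 for A0 against CHO-S, 8 and 3 to 8 for A1 against CHO-S, and 5 to 7, 6 to 8 and 0 to 10 for the phases of A0, A1 and CHO-S. The cause was not tested.

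Small values reversed. For A1 against A0 these were Pfas at exponential phase (-0.088 with A0 cultures 3 and 4) and, at stationary phase, Impdh1 (0.041 with the replicate block, 0.084 with A0 cultures 1 and 2, -0.054 to 0.041 without 1 culture), Atic (0.014 with A0 cultures 1 and 2) and Impdh2 (-0.11 with A0 cultures 3 and 4, -0.023 to 0.081 without 1 culture). In the interaction they were Gart (-0.052 with first libraries, -0.17 with A0 cultures 3 and 4, -0.053 to 0.12 without 1 culture), Paics (0.027 with A0 cultures 1 and 2, -0.14 to 0.0058) and Hprt1 (-0.10 with A0 cultures 3 and 4, -0.0063 to 0.11). Against CHO-S they were Gart in A0 (-0.025 with A0 cultures 3 and 4), Hprt1 in A0 at stationary phase (-0.018 with the replicate block, -0.11 with A0 cultures 1 and 2, -0.040 to 0.16 without 1 culture), Ppat in A1 (-0.013 to 0.077 without 1 culture at exponential phase, -0.078 with DESeq2 and -0.33 to 0.43 without 1 culture at stationary phase) and the ratio of Ppat to Paics in A1 (-0.066 to 0.013, chosen after seeing the data). Pfas over phases of A0 was 0.019 with first libraries.

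Over all genes, counts moved by more than 1.5 times for the interaction (1871, 3432 with the replicate block, 973 in 1 fit of 6 groups, 4586 with A0 cultures 1 and 2, 1003 to 2653 without 1 culture), A1 against A0 at exponential phase (5154, 3156 to 6017 without 1 culture), A0 (7606, 5043 with the block) and A1 (6345, 4051 to 10451 without 1 culture) against CHO-S at stationary phase, and the phases of A1 (6196, 2469 in 1 fit) and CHO-S (2308, 350 with the block, 4107 in 1 fit, 0 to 8269 without 1 culture). Depth limits CHO-S stationary culture 1, where Pfas had 6 counts.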
